A study of Mus musculus with 20 samples.

Results

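The smooth muscle contractile apparatus was taken as 35 genes, namely the rows of the read count table whose gene symbol stands in a list of 35 names. All 35 were found among the 34255 genes of the table. The list holds 12 thin filament genes, 3 myosin genes, 4 genes of the kinase and the phosphatase that act on the myosin light chain, 1 calcium pump inhibitor, 10 genes of dense bodies and other anchoring sites, 3 intermediate filament genes and 2 regulators. Reads at the 3′ end of mRNA were counted in 20 libraries, made from the kidneys of healthy WT male C57BL6/OlaHsd mice, which were 8 to 12 weeks old. Glomeruli, arterioles, post-capillary venules and peritubular capillaries were cut from the cortex by laser microdissection, whole kidney was the undissected reference, and each of the 5 groups held 4 libraries. No group carried an allele or received an agent, and genotype, strain and sex were shared by all groups. Samples of 1 group are labelled as biological replicates, but no label names their mouse. A p-value here sets a group difference against the spread between such samples, estimated over all groups of the fit. Arterioles, glomeruli and venules were picked by their shape on hematoxylin slides and capillaries on a slide stained with isolectin B4. Per the study's methods these slides were made for each mouse, so libraries of different compartments can come from the same mouse. A cut holds every cell inside its outline, and fewer cells of a type cannot be told apart from less RNA per cell. PCR ran for 18 cycles in whole kidney libraries and for 24 in microdissected ones, so in the comparisons with whole kidney this difference cannot be told apart from the compartment.

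Smooth muscle cells of a vessel wall contract when myosin filaments pull on actin filaments. Calcium bound to calmodulin switches on myosin light chain kinase, which phosphorylates the regulatory light chain of myosin, and myosin phosphatase reverses this step. The actin filaments are held by dense bodies in the cytoplasm and by dense plaques at the membrane, which do the work of the Z-line of striated muscle, and intermediate filaments tie these sites together. In the kidney such cells surround arteries and arterioles and set the flow into the glomerulus, while mesangial cells and pericytes make part of the same proteins. Many of these genes are known targets of serum response factor and its partner myocardin, which act through a short promoter element named the CArG box.

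Promoter stretches are shown for the members whose promoter window held a CArG box, because that box is the element best known in this group of genes. The windows ran from 250 bases before to 50 bases after the RefSeq start on GRCm38.p6. Of the 35 members 30 had at least 1 window, 35 windows in all, and Actg2, Tagln, Myh11, Myocd and Carmn had none. A CArG box, searched by its consensus on both strands, stood in 7 of the 35 windows (20%), which belong to 6 genes, and in 535 of all 32851 windows (1.63%). The MCAT element (CATTCC, or GGAATG on the other strand) stood in 34.3% of member windows and 14.7% of all windows, and the TATA box (TATAAA, or TTTATA) in 11.4% and 13.6%. Windows of 1 gene can overlap, as the pair for Ldb3 that holds the same box does. A match is a description of these letters, and a window without one says nothing about the factor. Each sequence runs 5′ to 3′ on the strand of the gene, with up to 40 bases on each side of the box, and capitals mark the CArG box. They come from chr2:156775263-156775352 (plus strand, Myl9), chr10:128493010-128493099 (minus strand, Myl6), chr14:20929148-20929220 (plus strand, Vcl), chr10:79988504-79988593 (plus strand, Cnn2), chr9:66514766-66514843 (minus strand, Fbxl22) and chr14:34588682-34588756 (minus strand, Ldb3).
Myl9: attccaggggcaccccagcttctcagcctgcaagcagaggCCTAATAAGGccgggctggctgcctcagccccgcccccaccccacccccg
Myl6: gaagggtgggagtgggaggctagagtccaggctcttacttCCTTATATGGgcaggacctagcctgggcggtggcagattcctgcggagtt
Vcl: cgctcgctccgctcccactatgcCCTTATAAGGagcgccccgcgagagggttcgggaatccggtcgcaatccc
Cnn2: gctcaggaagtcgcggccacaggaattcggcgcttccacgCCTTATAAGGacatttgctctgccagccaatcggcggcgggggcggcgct
Fbxl22: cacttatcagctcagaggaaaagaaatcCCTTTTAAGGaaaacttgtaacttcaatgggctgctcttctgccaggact
Ldb3: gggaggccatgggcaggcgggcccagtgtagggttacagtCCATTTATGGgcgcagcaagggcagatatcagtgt
The box began 161 bases before the start in Myl9, 50 in Myl6, 227 in Vcl, 56 in Cnn2, 222 in Fbxl22 and 35 in Ldb3. Vcl and Cnn2 carried the same 10 letters. The levels of these 6 genes differed widely, from Myl9, among the highest of all members in arterioles, to Cnn2, which was not called between arterioles and whole kidney.

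The libraries held between 4639090 and 12283098 counts, and those of the 5 groups overlapped in depth. They did not overlap in genes with a count, which numbered 11339 to 14164 in microdissected libraries and 18272 to 20474 in whole kidney. The part of this difference in the comparisons with whole kidney was not tested. Values are given as CPM, counts scaled to a common library size after TMM normalization, and in each sentence of 4 values they follow the libraries numbered 93, 96, 98 and 100. The scaling factor of arteriole 96 was 0.545 and that of the other arteriole libraries 0.772 to 1.02, so the CPM of arteriole 96 stood higher than its share of counts. Each transcript gives reads near its 3′ end, so counts of different genes were set side by side without scaling by length. Calls come from the quasi-likelihood test of edgeR, and a called gene had a Benjamini-Hochberg FDR under 0.05 over all genes tested and a log2 fold change above 1 (higher) or below -1 (lower).

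The 35 genes took far more of the arteriole libraries than of any other group. Their share of all counts was 6.11%, 5.81%, 4.49% and 3.60% in the arteriole libraries, a mean of 5.0% ± 1.2 (SD, n = 4). In glomeruli the mean was 0.998% ± 0.051, in post-capillary venules 0.375% ± 0.060, in the peritubular capillaries 0.178% ± 0.017 and in whole kidney 0.206% ± 0.010 (SD, n = 4 each). The ranges of arterioles, glomeruli and venules did not overlap with each other or with those of the other groups, while every peritubular capillary library (0.155% to 0.192%) stood below the lowest whole kidney library (0.194%). This last gap was narrow, and it closed when Vim, Myl6 and Tagln2 were left out of the sum. Thin filament genes made up 1.96% ± 0.49 of arteriole counts and myosin genes 1.34% ± 0.32, against 0.0979% ± 0.0042 and 0.0262% ± 0.0014 in whole kidney. In arterioles 5 genes, Acta2, Myl9, Flna, Myh11 and Mylk, held 59.0% ± 4.4 of the counts on the members. In glomeruli the leading 5 were Myl6, Mylk, Cald1, Myl9 and Flna, which held 58.9% ± 2.7.

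**Figure D1:**
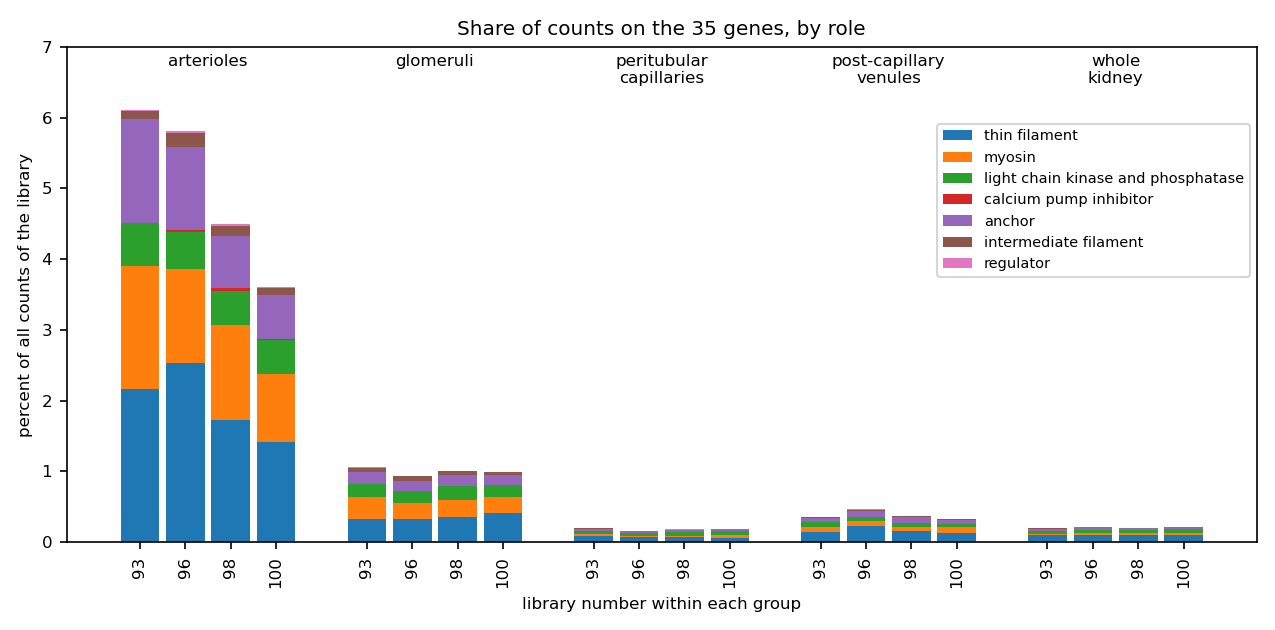
Percent of all counts of each library that fell on the 35 genes, stacked by role, for the 4 libraries of each group. The 4 arteriole bars reach 3.60% to 6.11%, the glomerular bars 0.934% to 1.06%, and no bar of the other groups passes 0.460%.

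Against whole kidney, 32 of the 35 members were called higher in arterioles and none lower, where 5.78% of all 13813 genes tested were called higher and 5.5% lower. The median log2 fold change was 5.75 over the members and 0.22 over all genes. All 3 myosin genes, all 4 kinase and phosphatase genes, all 10 anchors, all 3 intermediate filament genes, both regulators and the pump inhibitor were called, together with 9 of 12 thin filament genes. In 24 members all 4 arteriole libraries stood above all other 16 libraries, as they did in 1.91% of the 14601 genes with a mean above 1 CPM. The 3 members that were not called were Actg2, Cnn2 and Cnn3.

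**Figure D2:**
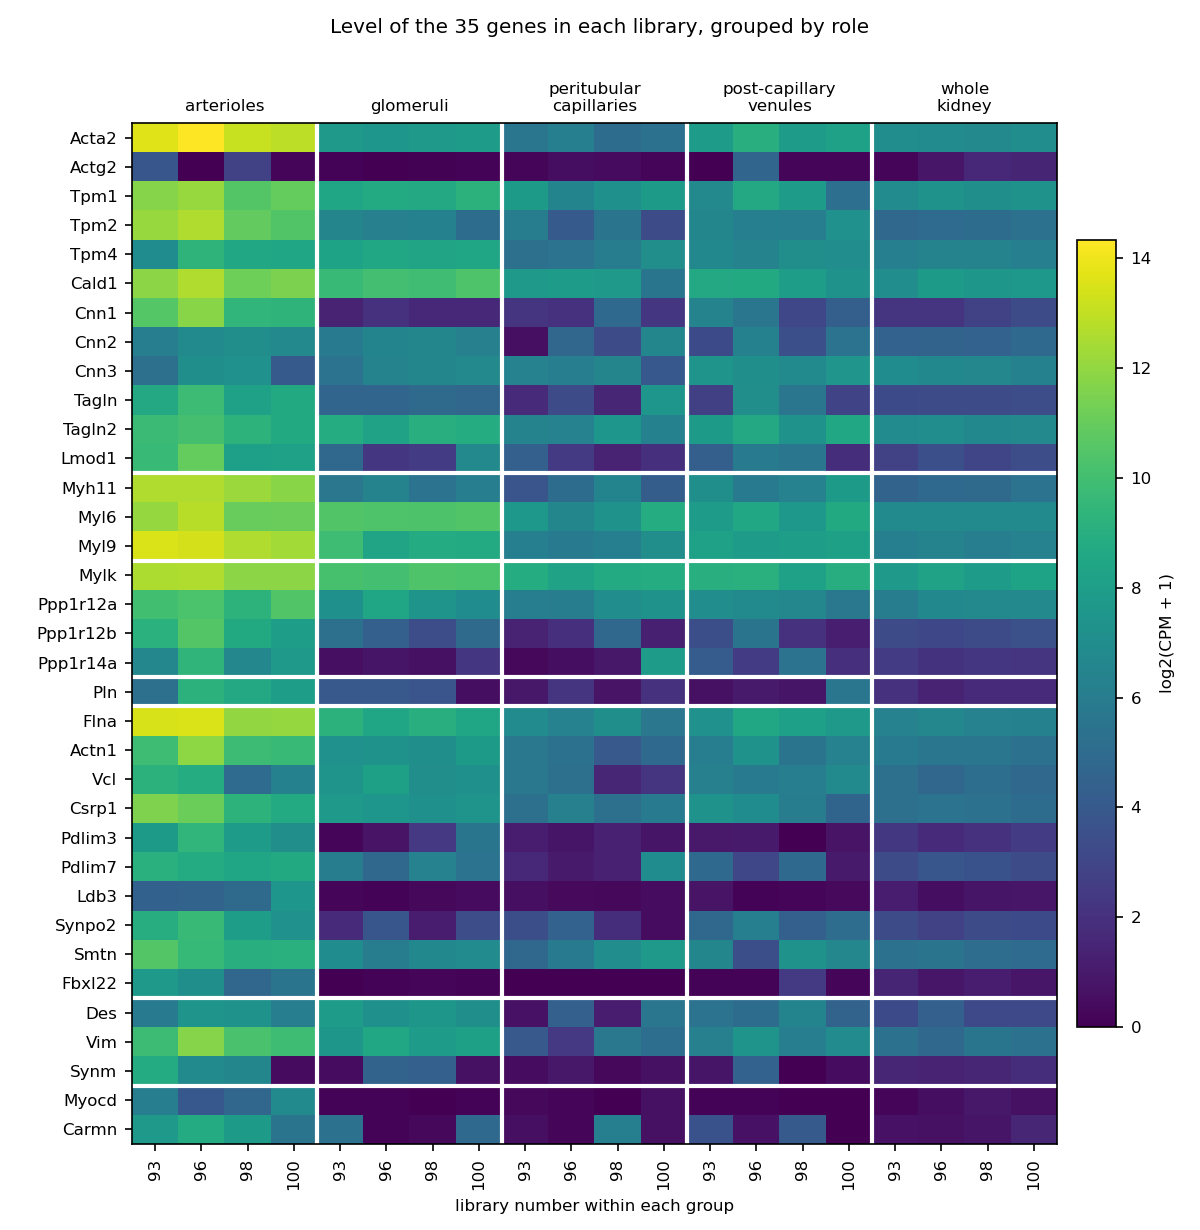
Level of each of the 35 genes (rows, grouped by role) in each of the 20 libraries (columns), as log2(CPM + 1). The arteriole columns are the brightest for most rows, and single bright cells outside arterioles mark 1 library each, such as Tagln, Ppp1r14a and Pdlim7 in peritubular capillary 100.

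Among thin filament genes, Acta2, the actin of vascular smooth muscle, stood at 12730, 20720, 8910 and 7594 CPM in arterioles and at 128, 119, 107 and 131 CPM in whole kidney. The lowest arteriole library was far above every whole kidney library, and the log2 fold change was 6.70 ± 0.36 (SE, FDR 2.47e-16). Cnn1, calponin 1, which binds actin and slows the myosin ATPase, measured 1513, 3541, 690 and 635 CPM in arterioles. It lay between 3.43 and 8.95 CPM in whole kidney, so the groups did not overlap, and the log2 fold change was 8.17 ± 0.87 (SE, FDR 1.30e-08). Without arteriole 96, which held the highest value, it was 7.41. Tropomyosins lie along the actin filament, and Tpm2 measured 4439, 6223, 1873 and 1414 CPM in arterioles against 27.3 to 39.8 CPM in whole kidney (log2 fold change 6.74 ± 0.59 (SE), FDR 1.39e-10). Tpm1 (log2 fold change 4.29) and Cald1, caldesmon, which also binds actin and tropomyosin (4.36), differed less, from higher levels in whole kidney of 145 ± 20 and 186 ± 40 CPM (SD, n = 4). Tpm4, a tropomyosin of nonmuscle cells as well, was at 125, 640, 388 and 337 CPM in arterioles against 72.2 to 85.4 CPM in whole kidney, and arteriole 93 was the low library (log2 fold change 2.25, FDR 0.0051).

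Lmod1, leiomodin 1, which starts new actin filaments, was at 826, 2013, 269 and 298 CPM in arterioles and at most 10.1 CPM in whole kidney. The groups were apart by a wide margin, and the log2 fold change of 6.72 fell to 5.84 without arteriole 96. Tagln, the actin-bundling protein transgelin, measured 401, 921, 297 and 410.2 CPM in arterioles and 8.49 to 9.60 CPM in whole kidney (log2 fold change 5.82 ± 1.13 (SE), FDR 0.000491). Its paralog Tagln2, made by many cell types, showed a smaller difference (2.72 ± 0.46 (SE), FDR 7.67e-05). Cnn2 stood at 68.0, 117, 136 and 106 CPM in arterioles and 21.9 to 28.3 CPM in whole kidney. All 4 arteriole libraries were thus above whole kidney, yet the difference did not pass the test (log2 fold change 2.18, FDR 0.13). Cnn2 was called with DESeq2 (FDR 0.0406), in the version 4 form of edgeR (0.0312) and when only these groups were fitted (0.0240). Cnn3 overlapped (15.8 to 151 CPM in arterioles, 78.3 to 124 in whole kidney, FDR 0.858). Actg2, the actin of visceral smooth muscle, was at 13.6, 0, 5.81 and 0.177 CPM in arterioles and between 0.202 and 2.12 CPM in whole kidney, with no order between the groups (FDR 0.505).

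All 3 myosin genes were called higher in arterioles. Myh11, the smooth muscle myosin heavy chain, stood at 6267, 6387, 4703 and 3553 CPM in arterioles and at 22.6, 28.8, 29.6 and 42.8 CPM in whole kidney. No arteriole library was lower than 3553 CPM, and the log2 fold change was 7.40 ± 0.56 (SE, FDR 2.14e-12). Myl9, the regulatory light chain that the kinase acts on, measured 12030, 10890, 6311 and 5298 CPM in arterioles against 69.8 to 83.2 CPM in whole kidney (log2 fold change 6.83 ± 0.40 (SE), FDR 1.20e-15). Myl6, the essential light chain shared with nonmuscle myosin, was at 4316, 7204, 2088 and 2138 CPM in arterioles and at 110.3 to 115 CPM in whole kidney (log2 fold change 5.12 ± 0.45 (SE), FDR 1.56e-10). For all 3 genes libraries 93 and 96 were the higher pair in arterioles.

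Mylk, the kinase of the regulatory light chain, measured 6049, 6312, 3650 and 3690 CPM in arterioles and 205, 302, 239 and 323 CPM in whole kidney. The groups did not overlap, and the log2 fold change was 4.21 ± 0.32 (SE, FDR 2.43e-12). The phosphatase needs a targeting subunit that brings it to myosin. Both members that encode one, of a family that also holds Ppp1r12c, were higher in arterioles. Ppp1r12a, the widely expressed one, was at 1029, 1238, 620 and 1412 CPM against 65.6 to 108 CPM in whole kidney (log2 fold change 3.50 ± 0.50 (SE), FDR 4.22e-06). Ppp1r12b was at 578, 1450, 420.2 and 253 CPM against 7.70 to 10.6 CPM, with a log2 fold change of 6.24 that was 5.54 without arteriole 96. Ppp1r14a, an inhibitor of the phosphatase that is active when phosphorylated, varied more in arterioles (98.2, 656, 99.6 and 212 CPM, against 3.33 to 4.85 CPM in whole kidney). Its log2 fold change of 6.10 (FDR 0.0067) was 5.13 without arteriole 96. Pln, phospholamban, which restrains the calcium pump of the sarcoplasmic reticulum, was at 38.3, 590.2, 406 and 264 CPM in arterioles and 1.72 to 3.13 CPM in whole kidney. Arteriole 93 was the low library for Pln, although it was high for the myosin genes (log2 fold change 7.10 ± 1.38 (SE), FDR 0.000537).

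Of the anchors, Flna, filamin A, which crosslinks actin and binds integrins, measured 11510, 11970, 4213 and 4297 CPM in arterioles against 78.7 to 98.9 CPM in whole kidney (log2 fold change 6.57 ± 0.43 (SE), FDR 4.93e-14). Csrp1, a LIM protein of actin bundles, was at 3087, 2246, 606 and 426 CPM in arterioles against 32.3 to 43.3 CPM, with a log2 fold change of 5.39 that was 4.78 without arteriole 93. Both were higher in libraries 93 and 96 than in 98 and 100. Actn1, the actin crosslinker alpha-actinin 1, was at 964, 3796, 909 and 808 CPM in arterioles and 39.0 to 58.3 CPM in whole kidney, and the log2 fold change of 5.07 was 4.21 without arteriole 96. Synpo2, an actin-binding protein of dense bodies, was at 495, 806, 254 and 150.4 CPM against 5.98 to 8.79 CPM (log2 fold change 5.75 ± 1.01 (SE), FDR 0.000126). Smtn, smoothelin, a marker of contractile smooth muscle, was at 1424, 780.1, 525 and 557 CPM against 31.2 to 45.2 CPM (4.45 ± 0.68 (SE), FDR 1.57e-05). The PDZ-LIM proteins Pdlim3 (137 to 693 CPM in arterioles) and Pdlim7 (358 to 557 CPM) bind alpha-actinin and were at 2.41 to 4.71 and 8.79 to 13.2 CPM in whole kidney. None of these genes overlapped between arterioles and whole kidney. For Pdlim3 the log2 fold change of 6.52 was 5.82 without arteriole 96.

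The lowest levels among called anchors belonged to Ldb3, a Z-line protein best known from heart and skeletal muscle, and Fbxl22, an F-box protein of the sarcomere. Ldb3 measured 20.7, 22.9, 30.5 and 186 CPM in arterioles and 0.460 to 1.21 CPM in whole kidney, so arteriole 100 stood apart. Fbxl22 measured 204, 140.4, 25.9 and 43.9 CPM in arterioles and 0.804 to 1.82 CPM in whole kidney. Vcl, vinculin of dense plaques, was split in arterioles, at 597 and 478 CPM in libraries 93 and 96 and 31.4 and 78.1 CPM in libraries 98 and 100, and overlapped with whole kidney (25.4 to 38.8 CPM). Among intermediate filament genes, Vim, vimentin, was at 918, 3363, 1192 and 940.4 CPM in arterioles against 27.9 to 46.4 CPM (log2 fold change 5.38, and 4.71 without arteriole 96). Des, desmin of muscle and pericytes, was at 59.1, 174, 158 and 69.6 CPM against 8.10 to 19.8 CPM (log2 fold change 3.38, FDR 0.0221). Synm, synemin, which joins desmin and vimentin filaments to the anchors, was at 449.6, 113, 95.5 and 0.354 CPM in arterioles, where library 100 fell below every whole kidney library (1.61 to 2.73 CPM). The 2 regulators were low in whole kidney, and Myocd, myocardin, was at 69.0, 14.7, 25.7 and 113 CPM in arterioles against 0.202 to 0.888 CPM. Carmn, a long noncoding RNA that binds myocardin, was at 215, 455, 223 and 45.7 CPM in arterioles against 0.575 to 1.88 CPM.

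The calls of 6 members in arterioles lay near the threshold and were lost when 1 library was left out. Those of Ldb3 and Myocd were also lost with all libraries when low counts were not filtered (FDR 0.0622 and 0.0636). Without arteriole 93 the FDR was 0.0571 for Vcl (log2 fold change 2.55 in place of 3.21), 0.0859 for Synm (5.03 in place of 6.33) and 0.0522 for Fbxl22 (5.84 in place of 6.47). Without arteriole 100 it was 0.0811 for Ldb3 (4.89 in place of 6.29) and 0.0511 for Myocd (6.06 in place of 6.68). Leaving out any 1 of the whole kidney libraries 93, 96, 98 and 100 gave an FDR of 0.0513 to 0.0601 for Synm, 0.0565 to 0.0724 for Ldb3 and 0.0683 to 0.0817 for Myocd, at log2 fold changes of 6.22 to 6.49, 6.09 to 6.53 and 6.41 to 7.03. Leaving out whole kidney 96, 98 or 100 gave 0.0574 to 0.0616 for Fbxl22 (log2 fold change 6.33 to 6.46), and leaving out whole kidney 93, 98 or 100 gave 0.0744 to 0.0759 for Des (3.25 to 3.26 in place of 3.38). The strand setting of the counting is not given, and exons of genes on the opposite strand lie over the 3′ end of some members. Within the last 500 bases, Vcl shares all 500 with Ap3m1, Fbxl22 317 with Herc1, Des 220 with the antisense gene Gm15179, Pln 141 with Cep85l and Tagln 108 with Pcsk7. In arterioles Ap3m1 ranged from 0 to 176 CPM, Herc1 from 0.320 to 24.1, Cep85l from 0 to 55.6 and Pcsk7 from 0.481 to 26.7, and reads of such pairs cannot be told apart without strand.

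**Figure D3:**
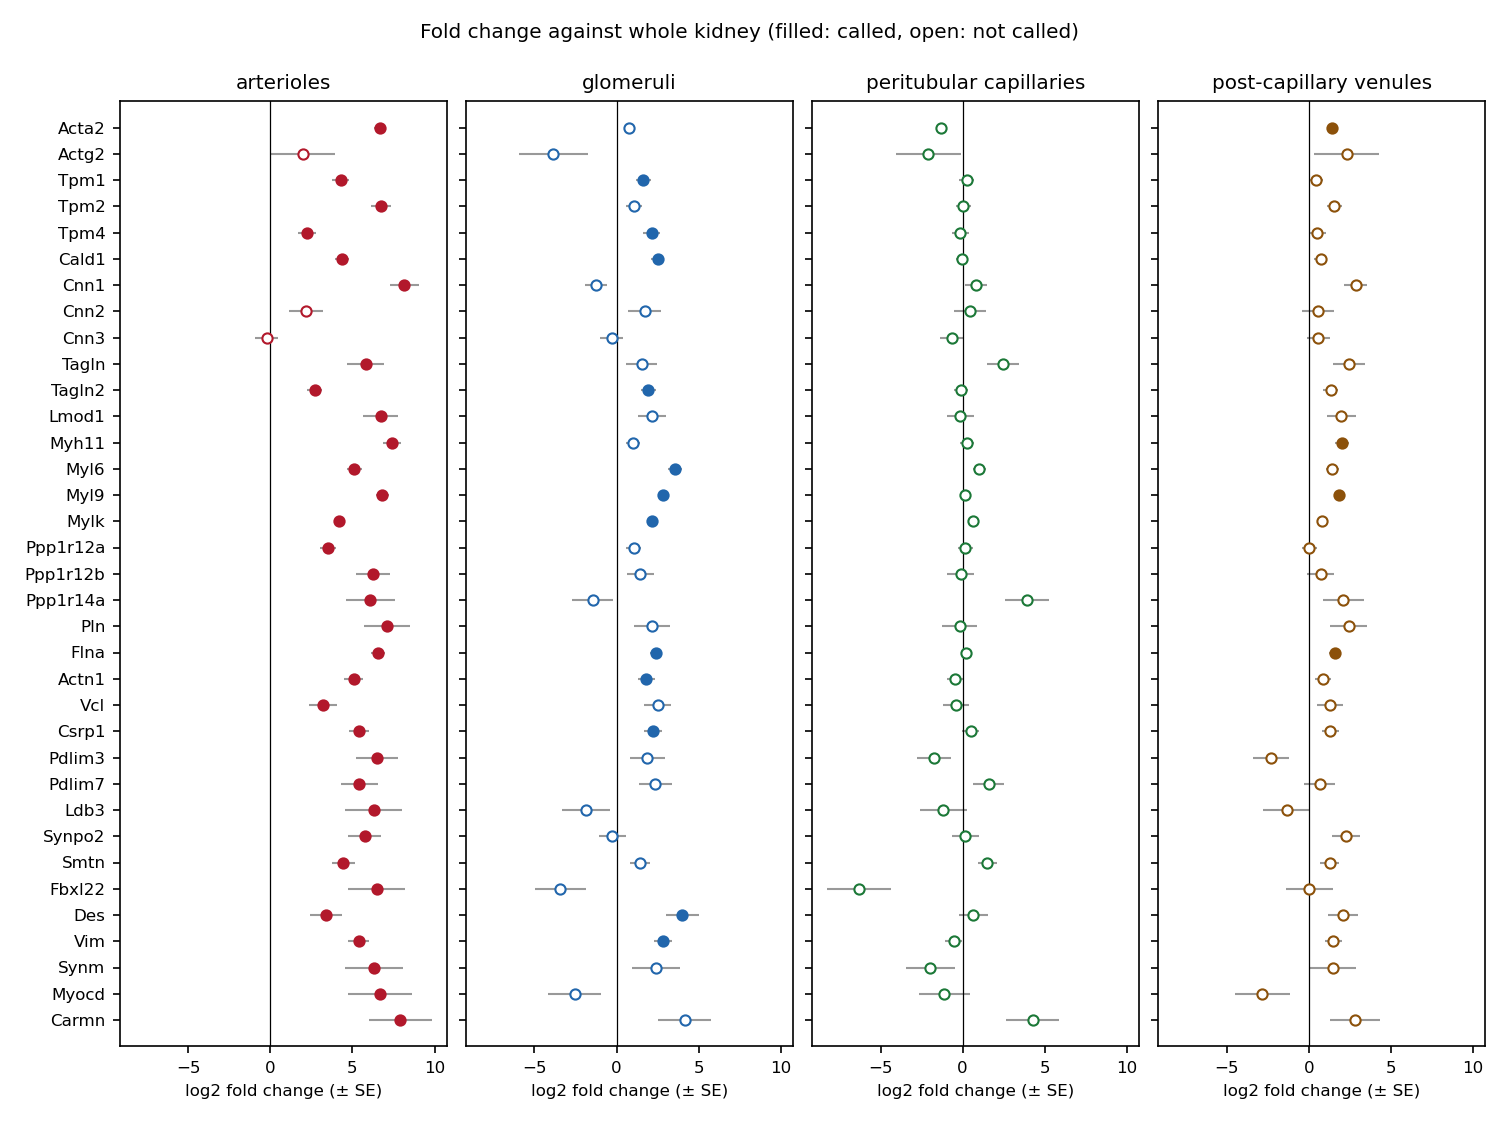
Log2 fold change of each member against whole kidney in the 4 compartments, with bars of 1 SE, filled where the gene was called. In arterioles 32 of 35 points are filled, in glomeruli 12, in post-capillary venules 4 and in peritubular capillaries none.

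The microdissected compartments were compared with each other in a separate fit of their 16 libraries, in which 34 members were tested and Actg2 was not. Arterioles were called higher than glomeruli in 25 members (1.31% of all 12179 genes tested), than peritubular capillaries in 29 (6.22%) and than post-capillary venules in 23 (2.5%). No member was called lower in arterioles in any of the 3 comparisons, which share the arteriole libraries, where 0.862%, 4.96% and 1.86% of all genes were. The median log2 difference of the members was 3.83 against glomeruli, 5.23 against peritubular capillaries and 4.14 against venules, and that of all genes 0.27, 0.20 and 0.24. Called higher than in all 3 other compartments were 22 members. The remaining 13 were Tagln, Pdlim7 and Fbxl22, called against 2 compartments, Tpm4, Tagln2, Ppp1r14a, Vcl and Synm, called against peritubular capillaries or glomeruli alone, and Actg2, Cnn2, Cnn3, Des and Carmn, called against none. Acta2 was 5.91 ± 0.37 higher in arterioles than in glomeruli on the log2 scale (SE, FDR 4.34e-14), 8.0 ± 0.4 higher than in peritubular capillaries and 5.27 ± 0.36 higher than in venules. Fbxl22 had no count in any peritubular capillary library, out of 33447913 counts in all, and with a floor of 3 counts over that group its arteriole mean was at least 986.5-fold higher.

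Some of these calls were lost when 1 library was left out. Against glomeruli, Lmod1 and Vim lost the call without arteriole 96 (FDR 0.0522 and 0.0657), and Pdlim3 without it or glomerulus 93, 96 or 98 (0.106 to 0.167). Myl6 lost it without arteriole 93 or 96 or any glomerular library (0.0540 to 0.166), and Tagln without arteriole 96 or any glomerular library (0.0657 to 0.0784). Pln lost it without arteriole 96 or 98 or any glomerular library (0.0667 to 0.112), Myocd without arteriole 93 or 100 or any glomerular library (0.0521 to 0.128), and Ldb3 without arteriole 100 or any glomerular library (0.109 to 0.155). Without 1 glomerular library the log2 differences of these genes were 1.42 to 1.58 for Myl6 (1.54 with all), 4.26 to 4.29 for Tagln (4.28), 4.52 to 5.17 for Pln (4.92), 8.79 to 9.39 for Myocd (9.21) and 7.94 to 8.36 for Ldb3 (8.13). Against venules, Synpo2 lost the call without arteriole 93 or 96 or venule 93, 98 or 100 (0.0573 to 0.116) and Pln without arteriole 96 or 98 or venule 93, 96 or 98 (0.0601 to 0.0915). Ldb3 lost it without arteriole 100 or any venule library (0.0699 to 0.131), and Myocd without any venule library (0.0558 to 0.0684). Against capillaries, Ldb3 lost the call without arteriole 100 or capillary 96 or 98 (0.0502 to 0.0996), and Myocd without arteriole 100 or capillary 93, 96 or 98 (0.0620 to 0.0663).

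For Tagln, 3 peritubular capillary libraries were at 1.86 to 9.27 CPM and library 100 at 187 CPM. The log2 difference of 3.34 between arterioles and peritubular capillaries was 6.81 without that library, and the FDR of 0.0335 was 0.0758 to 0.0838 without capillary 93, 96 or 98 and 0.0803 without arteriole 96. Pdlim7 behaved alike, with 1.03 to 2.11 CPM in 3 capillary libraries and 122 CPM in library 100 (log2 difference 3.83, and 8.17 without it), and its call was lost without capillary 93, 96 or 98 (FDR 0.0516 to 0.0566). Ppp1r14a stood at 0.248 to 0.930 CPM in capillaries 93, 96 and 98 and at 235 CPM in library 100, as high as in arterioles, and was not called between arterioles and capillaries (log2 difference 2.17, FDR 0.285). Without library 100 it was called (8.93, FDR 0.000256), as it was in the version 4 form of edgeR (FDR 0.0410). Des, not called at a log2 difference of 2.72 (FDR 0.0740), was called without capillary 100 (3.99, FDR 0.0235), with independent filtering (FDR 0.0430), with DESeq2 (0.0196) and in the version 4 form (0.0135). Fitted on the libraries of these groups alone, the capillary calls of Tpm4, Vcl and Tagln were lost (FDR 0.0614, 0.0608 and 0.0629). Against venules Tagln was not called (FDR 0.0584) but was under all 7 other settings (0.00203 to 0.0418), and Carmn (FDR 0.0816) was called under 5 of the 7.

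In glomeruli 12 of 35 members were called higher than in whole kidney and none lower (1.59% and 1.47% of all genes tested), with a median log2 fold change of 1.82 over the members and 0.25 over all genes. The 12 were Tpm1, Tpm4, Cald1, Tagln2, Myl6, Myl9, Mylk, Flna, Actn1, Csrp1, Des and Vim. Most of these, such as Myl6, Tpm4, Tagln2, Flna and Vim, are known from many cell types besides smooth muscle. Myl6 measured 1373, 1357, 1284 and 1397 CPM in glomeruli against 110.3 to 115 CPM in whole kidney. The 4 glomerular libraries lay close together, and the log2 fold change was 3.58 ± 0.42 (SE, FDR 2.71e-07). Mylk measured 1169, 1062, 1356 and 1244 CPM (log2 fold change 2.18 ± 0.29 (SE), FDR 4.53e-06) and Cald1 833, 1050.0, 972 and 1366 CPM (2.51 ± 0.41 (SE), FDR 0.000113). Myl9 was at 944, 331, 453 and 437 CPM, with glomerulus 93 high (2.83 ± 0.33 (SE), FDR 2.08e-07). All of these glomerular libraries were above whole kidney.

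The other members were not called in glomeruli. Cnn1 was at 1.7, 3.08, 2.17 and 2.19 CPM, below every whole kidney library, though the difference did not pass the test (log2 fold change -1.27, FDR 0.374). Acta2 was at 203, 186, 213 and 230.2 CPM, above every whole kidney library, and was not called either (0.79 ± 0.28 (SE), FDR 0.127). Myh11 was at 42.9 to 85.2 CPM (1.00, FDR 0.223). Myocd, Ldb3 and Fbxl22 were at or below 0.329 CPM in all 4 glomerular libraries, under the whole kidney range for each. Synpo2 overlapped with whole kidney (1.24 to 13.2 CPM, FDR 0.963). In Lmod1 and Pdlim3, glomerulus 100 alone reached 108 and 47.2 CPM, while the other 3 libraries were at 3.85 to 26.9 CPM and 0.199 to 4.19 CPM.

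Des was the member with its highest mean in glomeruli, at 231, 147, 194 and 142 CPM. These values overlapped with those of arterioles, and the difference between the compartments was -0.63 ± 0.96 on the log2 scale (SE, FDR 0.800). Against whole kidney the glomerular call of Des (FDR 0.0168) was lost without glomerulus 93 (0.0613) and without whole kidney 93, 98 or 100 (0.0768 to 0.0789). Other glomerular calls lost with 1 library were those of Actn1 (FDR 0.0560 to 0.117) and Tpm1 (0.0693 to 0.138), each without any 1 of the 8 libraries compared. Tpm4 was lost without glomerulus 96 (0.0669) or any whole kidney library (0.0699 to 0.0807), Csrp1 without whole kidney 93 or 100 (0.0514 and 0.0553), and Tagln2 without whole kidney 98 (0.0524). The glomerular count was 7 without whole kidney 93, 98 or 100. With RLE scaling and with DESeq2 the calls of Tpm1 (FDR 0.0762 and 0.135) and Actn1 (0.0554 and 0.0627) were lost. That of Tpm4 was lost when low counts were not filtered (0.05715).

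Compared with peritubular capillaries, glomeruli were called higher in 10 members and lower in 1 (2.2% and 2.27% of all genes tested). The 10 were Acta2, Tpm4, Cald1, Tagln2, Myl6, Myl9, Mylk, Flna, Actn1 and Vim. Tpm4 lost its call without glomerulus 96 (FDR 0.0559) or capillary 93, 96 or 98 (0.0653 to 0.0831), and the log2 difference of Myl6, 2.56, was 3.16 without capillary 100. The member called lower was Ppp1r14a (log2 difference -5.38, FDR 0.0326), which rested on capillary 100. Without that library the difference turned to 1.38 (FDR 0.664), and without glomerulus 100 it was -6.59. The FDR was 0.103 to 0.106 without glomerulus 93, 96 or 98. Between glomeruli and post-capillary venules 3 members were called higher in glomeruli, Cald1, Myl6 and Mylk, and 1 lower, Cnn1 (0.493% and 0.731% of all genes tested). Cnn1 measured 84.8, 49.2, 7.39 and 19.1 CPM in venules, above every glomerular library, and the log2 difference was -4.13 ± 0.75 (SE, FDR 0.00107), or -3.47 without venule 93. Fitted on the libraries of these groups alone, Cnn1 missed the threshold (FDR 0.0767). The calls of Cald1 (FDR 0.0194) and Mylk (0.0146) were lost without venule 98 (0.0694 and 0.0808), and that of Cald1 also without venule 100 (0.106) or glomerulus 100 (0.0803).

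**Figure D4:**
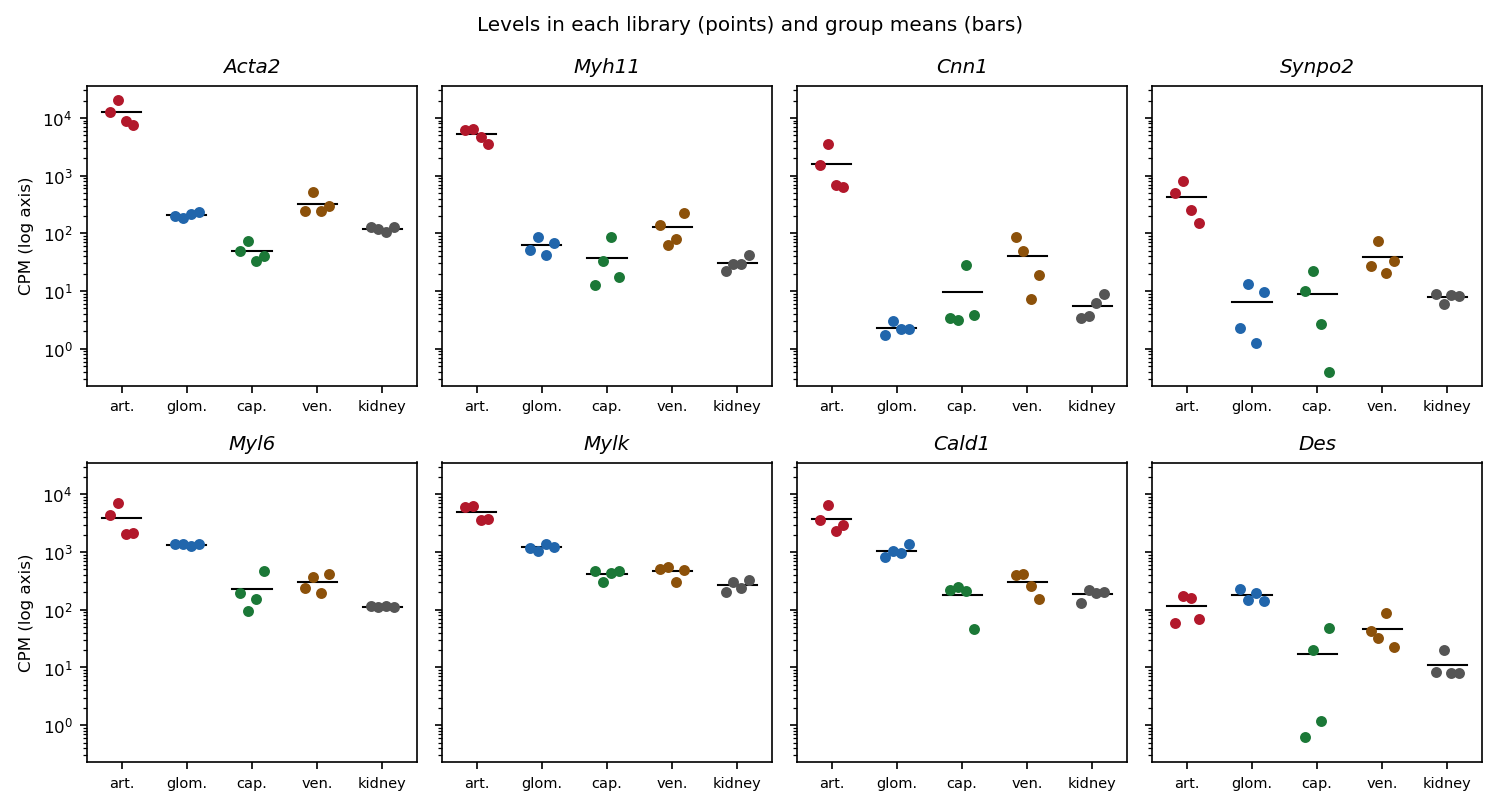
CPM on a log axis of 8 members in each library (points, ordered 93, 96, 98 and 100) with the group mean as a bar, for arterioles, glomeruli, peritubular capillaries, post-capillary venules and whole kidney. Cnn1 is at 1.7 to 3.08 CPM in glomeruli and above 7 CPM in every venule library, while Myl6, Mylk and Cald1 are higher in glomeruli than in venules.

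In post-capillary venules 4 members were called higher than in whole kidney, Acta2, Myh11, Myl9 and Flna, and none lower (0.203% and 0.0217% of all genes tested). The median log2 fold change was 1.33 over the members and 0.19 over all genes, and 32 of 35 members had a value above 0. Myl9 measured 298, 239, 265 and 282 CPM in venules and 69.8 to 83.2 CPM in whole kidney. The groups were well apart, and the log2 fold change was 1.83 ± 0.32 (SE, FDR 0.00181). Acta2 was at 246, 515, 241 and 295 CPM in venules, all above whole kidney, with venule 96 the highest (log2 fold change 1.42 ± 0.29 (SE), FDR 0.0105). Myh11 was at 140.3, 61.7, 80.5 and 224 CPM (2.03 ± 0.44 (SE), FDR 0.0226) and Flna at 149, 390.3, 278 and 205 CPM (1.59 ± 0.35 (SE), FDR 0.0236). Neither overlapped with whole kidney. Cnn1 came close (log2 fold change 2.86, FDR 0.0626), although venule 98 lay inside the whole kidney range. With RLE scaling and with DESeq2 the calls of Acta2 (FDR 0.0514 and 0.0808) and Flna (0.0651 and 0.0798) were lost. The call of Acta2 was also lost without venule 96 (FDR 0.198) or whole kidney 93 or 98 (0.0572 and 0.0817). That of Flna was lost without venule 96 or 98 (0.266 and 0.0772) or any whole kidney library (0.0563 to 0.137). Myh11 was lost without venule 93 or 100 (0.0748 and 0.266) or whole kidney 93, 96 or 98 (0.103 to 0.172). The count was 2 without venule 96 or whole kidney 96, and 1, Myl9, without whole kidney 93 or 98.

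In peritubular capillaries edgeR called none of the 35 members against whole kidney in either direction, where 0.0869% of all genes tested were called higher and 0.00724% lower. DESeq2 called 1 member, Fbxl22, lower. Acta2 measured 49.1, 72.8, 32.9 and 40.6 CPM in capillaries, all below the lowest whole kidney library of 107 CPM, with a log2 fold change of -1.31 ± 0.29 (SE) and an FDR of 0.0518. It was called lower under 5 of the 7 other settings, with no filter, with independent filtering, in the version 4 form of edgeR, with a block and with only these groups fitted, and not with RLE scaling or DESeq2 (FDR 0.133 and 0.0733). Against venules, 2 members were called lower in capillaries and none higher (0.312% and 0.0739% of all genes tested). They were Acta2 (log2 difference -2.74 ± 0.32 (SE), FDR 5.30e-07) and Myl9, at 71.6, 57.8, 72.5 and 137 CPM in capillaries (-1.69 ± 0.34 (SE), FDR 0.00807). For both genes every capillary library was below every venule library, and the FDR of Myl9 was 0.0604 with DESeq2 and 0.0652 when only these groups were fitted. Single capillary libraries stood far above the others for Tagln, Ppp1r14a and Pdlim7 (library 100) and for Cnn1, Ppp1r12b and Carmn (library 98), where Carmn was at 73.4 CPM and at most 0.585 CPM in the other 3.

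In 6 families of paralogs, the smooth muscle gene took a larger mean share of the family's counts in arterioles than elsewhere. Scaling cannot change this comparison, which is made inside each library. Acta2 held 38.1%, 39.3%, 37.4% and 36.4% of the counts on Acta2, Actg2 and the cytoplasmic actins Actb and Actg1 in arterioles, and 0.826% to 7.45% in the other 16 libraries. Actg1, a gene every cell uses, was listed at 0 to 0.707 CPM in all 20 libraries, so this share is in effect that of Acta2 against Actb. Actb itself was at 20680, 31980, 14910 and 13290 CPM in arterioles against 2601 to 3071 CPM in whole kidney. Myh11 held 89.7% ± 2.0 of the counts on Myh11 and the nonmuscle heavy chains Myh9 and Myh10 in arterioles, 24.5% ± 6.4 in venules, 13.2% ± 3.4 in whole kidney and 6.93% ± 2.58 in glomeruli (SD, n = 4). The arteriole range, 87.4% to 91.8%, lay above every other library, the highest of which was a venule library at 30.4%.

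Cnn1 held 93.5%, 93.2%, 70.6% and 83.9% of calponin counts in arterioles but 1.15% to 1.78% in glomeruli, where Cnn2 and Cnn3 held nearly equal parts (48.9% ± 5.8 and 49.7% ± 6.0). In whole kidney Cnn3 was the leading calponin with 77.1% ± 6.6, and in venules it held 69.4% ± 14.5 (SD, n = 4). Tpm2 held 47.0% ± 9.1 of tropomyosin counts (Tpm1, Tpm2, Tpm3 and Tpm4) in arterioles, against 19.8% ± 9.9 in venules and 6.76% ± 2.81 in glomeruli, where Tpm1 and Tpm4 held 42.0% ± 5.9 and 33.1% ± 3.2. Without Tpm3 in the family, venule 100 reached 47.9% and lay inside the arteriole range of 37.7% to 55.8%. Myl9 held 94.7% ± 3.1 of the counts on Myl9, Myl12a and Myl12b in arterioles, 57.8% ± 11.7 in glomeruli and 32.6% ± 5.3 in whole kidney. Tagln held 31.6% to 49.6% of the counts on Tagln and Tagln2 in arterioles and less elsewhere, except in capillary 100 with 70.5%. The mean whole kidney share stood between those of arterioles and glomeruli for Acta2, Cnn1, Tagln, Tpm2 and Myh11, with ranges that overlapped with glomeruli for Tagln and Tpm2, and below both for Myl9. Outside these families Des went the other way. Its mean share of the counts on Des, Vim and Synm was 6.68% in arterioles and 39.4% in glomeruli. It was 35.6% in capillaries, 30.7% in venules and 21.7% in whole kidney. For Ppp1r12b, among Ppp1r12a, Ppp1r12b and Ppp1r12c, the mean was highest in arterioles (28.4%). Yet arteriole 100 (11.7%) lay below some glomerular, capillary and venule libraries.

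**Figure D5:**
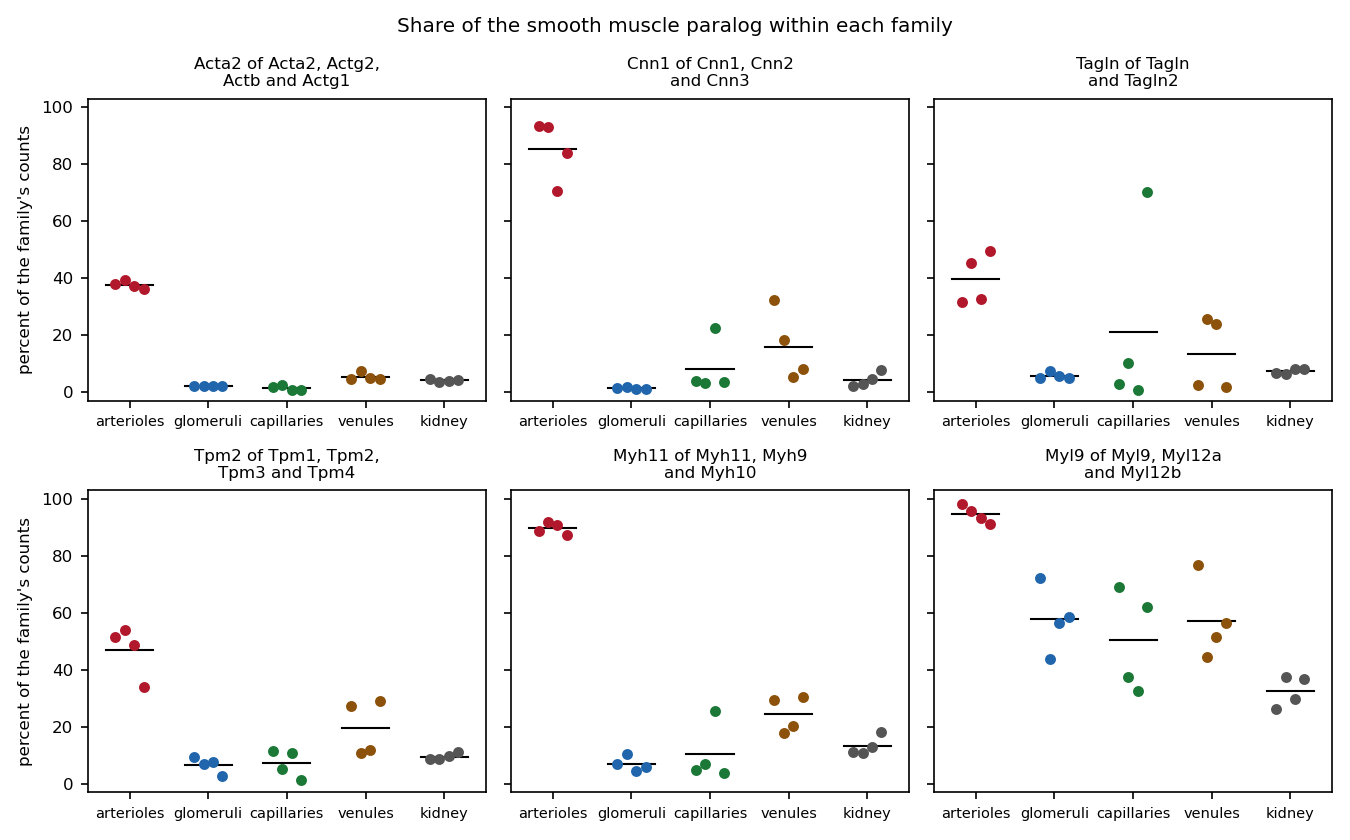
Percent of the counts of 6 paralog families that fell on the smooth muscle gene, in each library (points) with the group mean (bar). Arteriole points stand above all others in each family except Tagln, where capillary 100 reached 70.5%.

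Genes that work with the apparatus were read from further lists. Of 16 dense plaque and membrane anchors outside the members, 15 were tested and 11 called higher in arterioles than in whole kidney. Talin 1 (Tln1), integrin beta 1 (Itgb1) and Lpp, a LIM protein of dense plaques, had the smallest p, at log2 fold changes of 3.25, 2.92 and 3.14. Of 9 serum response factor partners and transcription factors 2 were called, Mef2c (4.00, FDR 7.91e-05) and Gata6 (4.77, FDR 0.0418), and Klf4 came next (3.07, FDR 0.0723). Srf itself, named after its values were seen, was at 0, 16.2, 0 and 22.9 CPM in arterioles. Of 11 nonmuscle paralogs 9 were tested, 4 called higher (Actb, Actn4, Myh9 and Tpm3) and 1 lower (Myh14, the heavy chain of nonmuscle myosin IIC). Tpm3 and Myh14 were named after their values were seen. Of 9 striated muscle genes 2 were tested and 1, Myh6, called higher, and the summed level of that list was at most 182 CPM in an arteriole library. In glomeruli 3 nonmuscle paralogs were called higher and 1 lower, and 4 anchors of the dense plaque list were called higher. No gene of these 4 lists was called in peritubular capillaries or venules.

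Markers listed for some other cell types moved with the members and those for others did not. A marker sum does not tell which cells hold the RNA. Itga8 stood both in the mesangial and pericyte list and in the list of dense plaque anchors. The part of these cell types in the results was not tested. In arterioles, 7 of 7 mesangial and pericyte markers were called higher than in whole kidney (summed level 4940.0 to 10280 CPM against 127 to 151 CPM), 6 of 8 endothelial markers (2495 to 4898 against 283 to 354), 4 of 6 fibroblast markers (1994 to 4727 against 275 to 299) and 5 of 5 erythrocyte markers. Podocyte markers summed to 1086 to 1749 CPM in arterioles against 182 to 208 CPM in whole kidney. Yet 2 of 6 were called higher and 2 lower, and their median log2 fold change was -2.87. In glomeruli they summed to 6786 to 7687 CPM, with 6 of 6 higher. In glomeruli 5 of 7 mesangial and pericyte markers were higher too (973 to 1388 CPM). The juxtaglomerular markers Ren1 and Akr1b7 summed to 699 to 1639 CPM in glomeruli and 2.90 to 25.8 CPM in arterioles. In venules 2 of 6 fibroblast markers and 4 of 5 erythrocyte markers were higher than in whole kidney. In peritubular capillaries no endothelial marker of 8 was called, and 2 of 6 proximal tubule markers were higher (64100 to 118600 CPM against 35580 to 38170). In arterioles 4 of 6 proximal tubule markers and 3 of 5 distal tubule and collecting duct markers were lower than in whole kidney, and 1 of 5 leukocyte markers was higher. No marker of these lists was at 0 in all libraries of a group.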

How the data were processed

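The libraries were made from kidney cortex and whole kidney with a 3′ mRNA kit that reads transcripts near their end. The authors deposited 1 table of raw counts per gene for the whole series, not normalized, with 34255 genes and 168 columns of counts, of which 20 match the control libraries analysed here and 148 were not used. Each column was matched to its group by name, and 93, 96, 98 and 100 are the numbers in the column names. Per the study's methods reads were trimmed with bbduk, aligned with STAR 2.7 to GRCm38.p6 and counted with HTSeq 0.13. The submitters' processing notes also name SAMtools 1.9, FastQC 0.11.8, MultiQC 1.7 and featureCounts, and list GRCm39. Strand setting and molecular identifiers are not given in sources used here.

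Counts were tested with edgeR 4.0.16 in R 4.3.3 (TMM scaling, filterByExpr, quasi-likelihood F test without a block). A fit of all 20 libraries (13813 genes) gave the contrasts with whole kidney, and a fit of the 16 microdissected libraries (12179 genes) the contrasts between compartments. The fit was tested on simulated data. Adjusted p-values (FDR) run over all genes tested. Shares of counts need no scaling, and their 95% Wilson intervals were at most 0.0190 percentage points on each side for the 35 genes together and 3.13 for a paralog family. These cover counting error only. The members and the gene lists were chosen with earlier results of these data known, so no p is given for the members as a group. All members are accounted for, and per list of other genes the 3 with the smallest p in arterioles against whole kidney are named, with paralogs of members. The result of 1 further list is not reported here. The actin family was widened to Actb and Actg1 after the values were seen, since Acta2 held nearly all counts of the pair of Acta2 and Actg2. The alternatives were RLE scaling, no filter, independent filtering, DESeq2 1.42.0, the version 4 form of edgeR, the column number as a replicate block, only the libraries compared, and leaving out each library in turn.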

Additional observations from a re-analysis of the deposited data

Results flagged for a closer look

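In 24 of 174 gene and group combinations 1 of the 4 libraries stood apart, with a gap to the nearest of the others, relative to the group's whole range, above the critical value of Dixon's test. Chance alone flags about 1 in 20 groups of normally distributed values. CPM without a log scale need not be so distributed, so the number expected here is not known. No explanation was tested for any of them.

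Peritubular capillary 98 stood apart in 4 members. It was at 28.5 CPM for Cnn1 (3.09 to 3.90 in the others), 187 CPM for Tagln2 (78.2 to 82.7), 26.9 CPM for Ppp1r12b (1.37 to 2.79) and 73.4 CPM for Carmn (0.147 to 0.585). Peritubular capillary 100 stood apart in 3, at 187 CPM for Tagln (1.86 to 9.27), 235 CPM for Ppp1r14a (0.248 to 0.930) and 122 CPM for Pdlim7 (1.03 to 2.11). Capillary 93 was at 19.95 CPM for Lmod1 (1.74 to 4.41).

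Glomerulus 100 was high for Pdlim3 at 47.2 CPM (0.199 to 4.19) and Ppp1r14a at 3.84 CPM (0.498 to 0.770), and low for Pln at 0.438 CPM (12.6 to 15.0). Glomerulus 98 had no count of Myocd, at 0 CPM, where the others were at 0.0997 to 0.11 CPM, which is 1 count each. Venule 96 was at 24.5 CPM for Actg2 (0 to 0.185) and 21.6 CPM for Synm (0 to 0.781), venule 98 at 4.43 CPM for Fbxl22 (0.112 to 0.134) and venule 100 at 48.5 CPM for Pln (0.558 to 1.09).

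In arterioles library 96 was at 3796 CPM for Actn1 (808 to 964) and 3363 CPM for Vim (918 to 1192), and library 100 at 186 CPM for Ldb3 (20.7 to 30.5). In whole kidney library 100 was at 28.3 CPM for Cnn2 (21.9 to 22.4) and 1.88 CPM for Carmn (0.575 to 0.752), library 96 at 98.9 CPM for Flna (78.7 to 81.5) and 19.8 CPM for Des (8.10 to 8.28), and library 93 at 65.6 CPM for Ppp1r12a (102 to 108).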

How the results depend on the processing

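The number of members called higher in arterioles than in whole kidney was 27 to 32 when 1 library was left out and 30 to 33 under the other 7 alternatives, against 32. The counts of arterioles against glomeruli (25) were 19 to 24 and 23 to 28, against peritubular capillaries (29) 25 to 31 and 25 to 32, and against venules (23) 19 to 23 and 24 to 30, and no member was called lower in any of them. Fits without a library also hold fewer samples, and the part of this in the counts was not tested. For the members called or not called in single comparisons, 2586 of the values without 1 library kept their side of the threshold. Of the others, 143 lost the call, 22 gained one and 1 called value turned sign. That one was Ppp1r14a between glomeruli and peritubular capillaries, at 1.38 without capillary 100 and -6.59 without glomerulus 100. Under the other alternatives 2163 kept their side of the threshold, 130 gained a call and 29 lost one. Direction was checked only for called values and gained calls, so a value that stayed uncalled may have turned sign.

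Counts outside 1.5 times the main one were as follows. Glomeruli against whole kidney had 7 to 10 members higher without 1 library (12 with all), and 1 lower with independent filtering. Capillaries against whole kidney had 1 member lower with no filter, independent filtering, DESeq2, the version 4 form, the replicate block and only the libraries compared, and 0 to 1 without 1 library. Venules against whole kidney had 2 members higher with RLE, 7 with no filter, 9 with independent filtering and 9 with only the libraries compared, and 1 to 4 without 1 library. Glomeruli against capillaries had 17 higher with independent filtering, and 2 lower with no filter or independent filtering, 0 with the replicate block or only the libraries compared, and 0 to 2 without 1 library. Glomeruli against venules had 1 higher with RLE, 5 with only the libraries compared and 1 to 3 without 1 library, and 3 lower with independent filtering, 2 with DESeq2 and 0 with only the libraries compared. Capillaries against venules had 7 lower with no filter, 8 with independent filtering, 4 with the version 4 form, 4 with the replicate block, 1 with only the libraries compared and 2 to 4 without 1 library. The causes were not tested.

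Without mitochondrially encoded and hemoglobin genes in the total, the share of the 35 genes was 1.08% (1.075) in glomeruli, 0.198% in capillaries, 0.452% in venules and 0.240% (0.2399) in whole kidney. Without Vim, Myl6 and Tagln2 it was 0.735%, 0.149%, 0.307% and 0.175%, and without Acta2, Myl9, Tagln and Vim 3.28% in arterioles, 0.864% in glomeruli, 0.300% (0.3004) in venules and 0.177% in whole kidney. With either set left out, capillaries overlapped with whole kidney. They reached 0.1623% and 0.178%, and the lowest whole kidney library was at 0.1607% and 0.1639%.

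RLE in place of TMM moved the median log2 fold change of all genes in arterioles by 0.17 against whole kidney, 0.28 against glomeruli, 0.24 against capillaries and 0.23 against venules, and the all-gene calls of arterioles against glomeruli from 160 higher and 105 lower to 237 and 91, and against venules from 305 and 227 to 399 and 172. Over all alternatives the genes called higher ranged from 438 to 2051 in arterioles (798), 115 to 1508 in glomeruli (219), 6 to 314 in capillaries (12) and 12 to 317 in venules (28), each against whole kidney. Between compartments they ranged from 94 to 805 for arterioles against glomeruli (160), 356 to 1822 against capillaries (758) and 182 to 1121 against venules (305), 182 to 1058 for glomeruli against capillaries (268), 26 to 445 against venules (60) and 1 to 226 for capillaries against venules (9).

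The column numbers were checked for pairing across groups. Over 40 pairs the correlation of deviations from the group means ran from -0.0526 to 0.0714, and none passed 0.1. Yet 15 of 20 libraries correlated best with their own number, with 4 numbers to choose from. That is a hint of pairing from the data and not from the design, and the check did not settle whether the numbers pair the libraries. Compartments can share a mouse, which no label ties to a number, and the main test fitted no block. With the number as a replicate block, members called higher were 32 in arterioles, 12 in glomeruli, 0 in capillaries and 4 in venules against whole kidney, and 23, 30 and 24 for arterioles against glomeruli, capillaries and venules. Depth limits genes near 0, such as Myocd, Ldb3 and Fbxl22 outside arterioles, where 1 count was about 0.1 CPM.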
